A study of Mus musculus with 16 samples.

Results

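The cytosolic ribosomal protein genes were examined across RNA-seq libraries of the quadriceps, the knee extensor of the mouse thigh. Members were the genes whose symbol is Rpl or Rps followed by a number and an optional letter, together with Rpsa, Rplp0, Rplp1 and Rplp2; symbols ending in -ps, the Rps6k kinases and Rps19bp1 were left out. This gave 82 of the 17370 genes in the deposited table, of which 50 encode large subunit or stalk proteins and 32 small subunit proteins. Of the 82, 79 are annotated as protein coding, and Rpl32l, Rpl6l and Rps4l as processed pseudogenes. The members lay on 19 chromosomes, with at most 14 on the same one. A filter on low counts kept 81 members for testing. Rpl39l, a relative of Rpl39, was left out with 0 to 0.842 CPM (library-scaled counts, the unit of all levels here).

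The series holds 16 libraries in 4 groups of 4, from 8 mice by the library names, which join a healthy and an injured limb. The anterior cruciate ligament (ACL) of the injured limb had been transected. For the next 7 days the mice drank either 0.5% sucrose as placebo or 40 mg/kg of an inhibitor of CSF1-R, the receptor that macrophages need to survive. The groups were therefore healthy placebo, injured placebo, healthy inhibitor and injured inhibitor, and by those names every healthy muscle came from an animal whose other limb was injured. Strain and age are not given in the labels used here. Libraries are named by group and replicate number, and replicate n is the same animal in both limbs of a treatment. The libraries held 20.1 to 27.1 M counts, so that 3 counts, taken as the floor of detection, equalled 0.111 to 0.149 CPM, which covers counting error only. Mitochondrial genes took 10.7 to 19.0% of counts. Of 8 muscle fibre markers all were tested, and their summed level was 92915 to 175815 CPM over the 16 libraries, which fits the labelled tissue.

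Ribosomal proteins build the small subunit, which reads the messenger RNA, and the large subunit, which joins amino acids. The stalk proteins Rplp0, Rplp1 and Rplp2 sit on the large subunit and recruit the factors that drive elongation. Skeletal muscle needs ribosomes for growth, and the mTORC1 kinase raises translation of ribosomal protein mRNAs through a pyrimidine-rich start that binds LARP1, while Myc and RNA polymerase I raise ribosome production. Striated muscle also has its own paralogs: Rpl3l can take the place of Rpl3 near the catalytic centre of the large subunit, and Eef1a2 takes the place of the elongation factor Eef1a1.

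The shared start of these mRNAs was looked for in RefSeq promoter sequences of build GRCm38.p6, which covered 60 of the 82 members from 250 bases before to 50 after the annotated start. A C followed by at least 4 pyrimidines and beginning within 5 bases of the start was found in 29 of 60 members (48.3%) and in 21.2% of 27025 genes. The following windows show 4 members with such a run, in capitals, and 3 without, each 5′ to 3′ on the gene's strand with 15 bases before the annotated start; they are shown because this start is what the members are known to have in common.
Rps6 (chr4:86857353-86857382, minus strand): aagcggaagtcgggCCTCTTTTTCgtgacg
Rpl13a (chr7:45128731-45128760, minus strand): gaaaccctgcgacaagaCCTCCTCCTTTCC
Rps26 (chr10:128626492-128626521, minus strand): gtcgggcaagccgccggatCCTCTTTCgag
Rpl14 (chr9:120571502-120571531, plus strand): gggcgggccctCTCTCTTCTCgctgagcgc
Rplp0 (chr5:115559452-115559481, plus strand): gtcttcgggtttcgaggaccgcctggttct
Rps4x (chrX:102189377-102189406, minus strand): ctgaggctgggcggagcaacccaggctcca
Rpl3l (chr17:24727811-24727840, plus strand): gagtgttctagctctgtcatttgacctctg
The capitals begin at the first such C in the searched stretch, 1 base before the annotated start in Rps6, 2 and 4 bases after it in Rpl13a and Rps26, and 4 bases before it in Rpl14. In Rps26 and Rpl14 pyrimidines also stand directly before the capitals. The 3 windows without a capital stretch hold no such run at these positions, which says only that the letters are not in the window.

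CCGGAAG, the core sequence bound by ETS family factors, was present on either strand in 25 of the 60 members (41.7%) and in 9.93% of all genes. TATAAA was present on either strand in 7 members (11.7%) and in 15.7% of genes. The 120 bases before the start of Rps6, which encodes the subunit protein phosphorylated after mTORC1 activation, hold CCGGAAG in capitals, while those before the first RefSeq start of the muscle paralog Rpl3l hold no copy.
Rps6 (chr4:86857368-86857487, minus strand): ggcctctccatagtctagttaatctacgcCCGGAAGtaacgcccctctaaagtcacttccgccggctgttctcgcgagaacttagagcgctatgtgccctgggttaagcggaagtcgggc
Rpl3l (chr17:24727706-24727825, plus strand): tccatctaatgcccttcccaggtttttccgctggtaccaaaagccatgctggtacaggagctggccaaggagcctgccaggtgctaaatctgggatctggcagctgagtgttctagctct
A match of letters is a description and not a bound site.

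The members differed widely in level. Mean CPM per kilobase of exon spanned 797-fold among the 81 tested members, with a median of 20.5. The stalk genes Rplp1 (342 CPM per kilobase) and Rplp0 (296) led, followed by Rps15 (271), Rpl4 (245) and Rps2 (212). The muscle paralog Rpl3l stood at 208 CPM per kilobase and Rpl3 at 3.76. Rps27 (0.429), Rpl37 (0.803), Rpl32l (0.915), Rpl9 (1.02) and Rpl12 (1.19) were lowest on this scale. Rps27 had 0.0389 to 0.953 CPM, which includes libraries under the floor of detection.

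These levels carry a limit set by gene copies. Of the 82 members, 76 had at least 1 annotated transcript of another gene that matched 95% or more over 50% or more of the coding sequence, with a median of 5 and, for Rpl21, a maximum of 59 such copies. For 44 members the copies in the table held more counts than the member itself. Of the deposited values of members, 88.0% were not whole numbers (by more than 0.01), against 24.2% of all values. The 6 members without such a copy included Rpl3l, Rpl8, Rps27l, Rps4l and Rpl39l. A low level per kilobase of a member with copies therefore cannot be told apart from reads given to the copies.

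**Figure D1:**
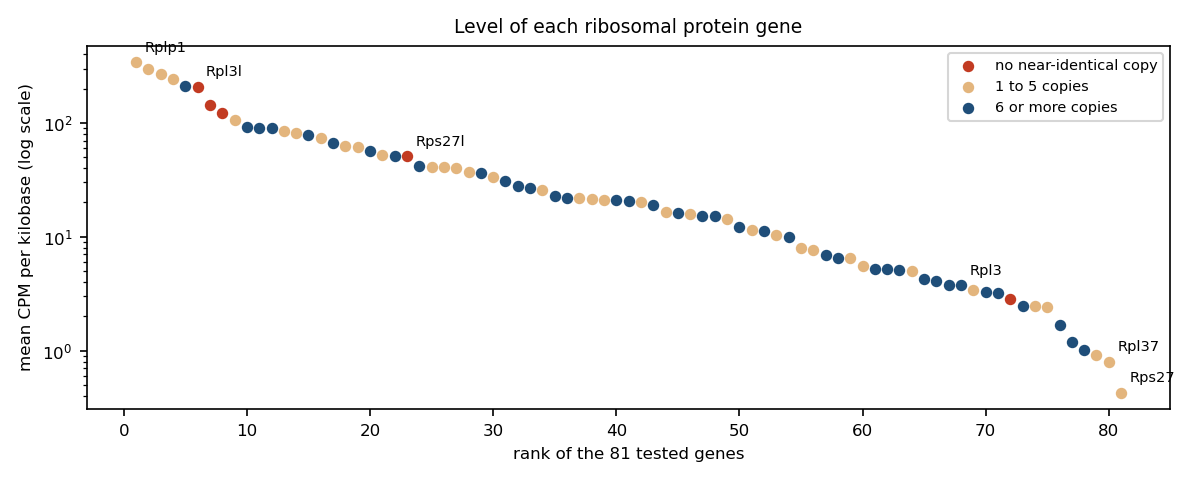
Mean CPM per kilobase of exon (log scale) of each tested ribosomal protein gene, ranked from the highest to the lowest and coloured by the number of near-identical annotated copies. Rplp1 leads at 342, Rpl3l stands at 208 with no copy, and Rps27 is last at 0.429.

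The libraries, rather than the groups, separated the members most. Summed over 82 members, ribosomal protein genes took 0.879% of counts in injured placebo 2 and 0.884% in injured placebo 3, and 0.517 to 0.647% in the other 14 libraries. As a score, the mean over the 81 tested members of log2 CPM minus the gene's mean over all libraries, injured placebo 1 to 4 stood at -0.26, 0.44, 0.49 and -0.15. Healthy placebo 1 to 4 stood at -0.22, -0.28, 0.22 and 0.04. Both injured placebo libraries 2 and 3 were above every other library, and injured placebo 1 and 4 lay within the range of healthy placebo. With the inhibitor the scores were narrower, at 0.01, -0.12, -0.06 and -0.07 in healthy and 0.05, -0.07, 0.05 and -0.06 in injured quadriceps. These groups overlapped. Over the 5 tested members without a near-identical copy, injured placebo 2 and 3 were still highest, at 0.24 and 0.30. Injured inhibitor 3 followed at 0.18, and healthy placebo 2 stood at 0.06.

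The group means of the score were -0.06 ± 0.23 in healthy placebo, 0.13 ± 0.39 in injured placebo, -0.06 ± 0.05 in healthy inhibitor and -0.01 ± 0.07 in injured inhibitor (SD, n = 4 each). Large and small subunit genes gave nearly the same scores in each library, for example 0.40 and 0.49 in injured placebo 2 and 0.50 and 0.48 in injured placebo 3. The highest library was injured placebo 3 for 44 members and injured placebo 2 for 23, together 82.7% of the members against 25.3% of all tested genes. For 50 members (61.7%, against 11.6% of all tested genes) they were the highest pair of the 16. Both libraries were singled out by their scores over these same members, so the shares are a description and not separate evidence.

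**Figure D2:**
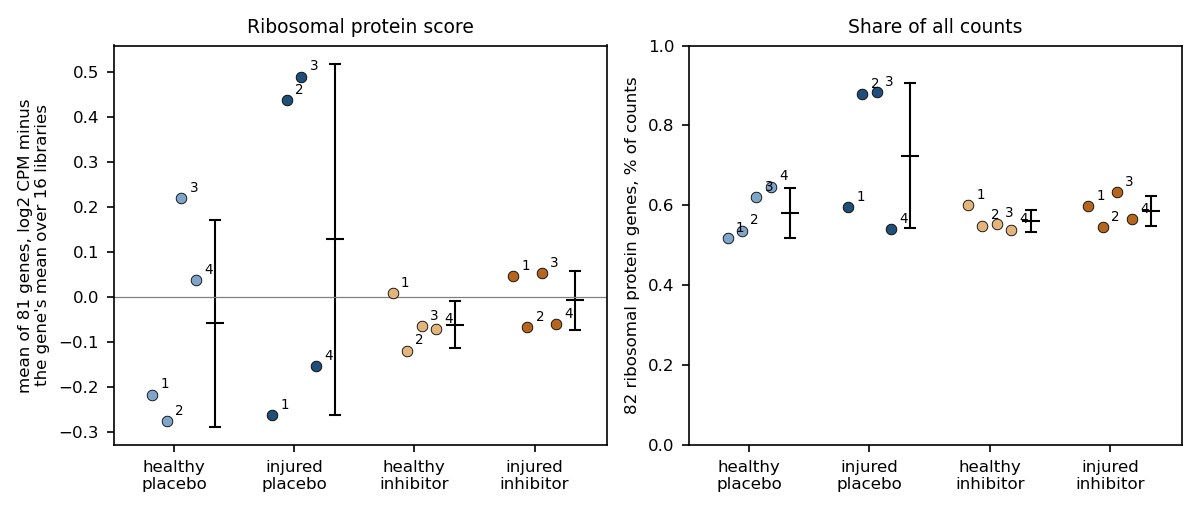
Left, the ribosomal protein score of each library (points, numbered by replicate) with the group mean and SD (bars); right, the share of all counts taken by the 82 members. Injured placebo 2 and 3 are at 0.44 and 0.49 on the left and at 0.879 and 0.884% on the right, above the other 14 libraries.

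The same 2 libraries held other signals. All 10 macrophage markers were tested, and their summed level was 835 and 760 CPM in libraries 2 and 3 of injured placebo and 437 CPM in healthy placebo 4, against 25.3 to 128 in the other 13 libraries. By group it was 25.3 to 437 CPM in healthy placebo, 85.7 to 835 in injured placebo, 41.0 to 128 in healthy inhibitor and 48.4 to 116 in injured inhibitor. The 7 fibroblast and matrix markers summed to 211 to 6611 CPM in healthy placebo, 592 to 5184 in injured placebo, 507 to 811 in healthy inhibitor and 607 to 1120 in injured inhibitor. Healthy placebo 4 was highest in the matrix markers, with a ribosomal protein score of 0.04.

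The summed level of joint lining and cartilage markers was also high in these libraries. Of 10 such genes 9 were tested, and their sum was 16.4 to 328 CPM in healthy placebo, 22.8 to 353 in injured placebo, 19.95 to 228 in healthy inhibitor and 35.8 to 44.2 in injured inhibitor. Prg4, a lubricant of joint surfaces, exceeded 100 CPM in 4 libraries: injured placebo 2 and 3, healthy placebo 4 and healthy inhibitor 1. In that order it held 220, 286, 251 and 169 CPM of sums of 310, 353, 328 and 228 CPM, so the sum mostly shows Prg4. Of the 9 tested genes, 6 were higher and 3 lower after injury with placebo. At an unadjusted p under 0.05 in edgeR, 0 were higher and 1 lower (background 4.61% and 2.63% of all genes). Acan, Col10a1, Col2a1 and Col9a1 were at 0 in at least 1 of the 16 libraries. In bulk muscle, more cells of a type with a high ribosome content and more of these mRNAs per cell cannot be told apart, and the part of these markers in the member levels was not tested.

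Injury with placebo was compared first, to ask what ACL transection did to the quadriceps. Of the 81 tested members, 76 had a higher mean in injured than in healthy quadriceps, with a median log2 difference of 0.21, whereas over all 15411 tested genes 51.1% were higher and the median was 0.01. No gene was called (0% of all genes, edgeR quasi-likelihood test, adjusted p under 0.05), and DESeq2 and limma-voom also called 0 members and 0 genes. At an unadjusted p under 0.05, 6 members were higher and 0 lower (background 4.61% and 2.63% of all genes): Rpl3, Rpl7, Rpl9, Rpl23, Rpl26 and Rps26. No member separated the groups completely (background 0.87% higher and 0.681% lower).

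The sign of the median depended on injured placebo 2 and 3 together. Without them the median was -0.12 and 16 of 81 members were higher. Without the 4 libraries high in Prg4, which include both, it was -0.11 with 19 higher. As these 2 libraries had the highest scores, leaving them out was bound to lower the median, so the turn is not separate evidence. With any 1 library left out the median stayed positive, at 0.09 to 0.33. Within animals, injured minus healthy scores were -0.04, 0.71, 0.27 and -0.19 for placebo animals 1 to 4. The members higher in the injured limb numbered 38, 73, 70 and 11 of 81 in these animals.

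Rpl3 had the highest log2 difference of any member with placebo. It was at 4.52, 6.10, 8.65 and 18.4 CPM in healthy placebo 1 to 4 and at 9.34, 28.8, 31.1 and 11.5 CPM in injured placebo 1 to 4. Injured placebo 2 and 3 were above all other libraries, and healthy placebo 4 was above injured placebo 1 and 4, so the groups overlapped. The log2 difference was 1.10 ± 0.43 (SE, edgeR adjusted p = 0.641), 0.69 without the 4 libraries high in Prg4 and 0.15 without injured placebo 2 and 3.

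Rpl3l, its muscle paralog, had the lowest log2 difference. It was at 343, 330, 405 and 321 CPM in healthy placebo and at 309, 273, 306 and 338 CPM in injured placebo. The lowest value was that of injured placebo 2, and the groups overlapped through injured placebo 4. The log2 difference was -0.19 ± 0.09 (SE, edgeR adjusted p = 0.641). Injured minus healthy log2 levels within placebo animals 1 to 4 were 1.03, 2.22, 1.83 and -0.67 for Rpl3 and -0.15, -0.27, -0.40 and 0.08 for Rpl3l. The paralogs thus had opposite signs in each of these 4 placebo animals. Within inhibitor animals 1 to 4 they were 0.26, -0.11, 0.09 and 0.58 for Rpl3 and 0.05, 0.11, 0.08 and -0.0039 for Rpl3l. There the signs were equal in animals 1 and 3.

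Per kilobase, the Rpl3l to Rpl3 ratio ran from 147, 104, 90.5 and 33.7 in healthy placebo to 63.9, 18.3, 19.1 and 56.9 in injured placebo. It was 70.5, 78.7, 72.4 and 105 in healthy inhibitor and 60.9, 91.8, 71.7 and 69.8 in injured inhibitor. The 3 lowest ratios belonged to injured placebo 2 and 3 and healthy placebo 4. These were the 3 libraries highest in macrophage markers, and also in matrix markers and in joint markers. Rpl3 has 7 near-identical copies, so the size of the ratio depends on how its reads were assigned.

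**Figure D3:**
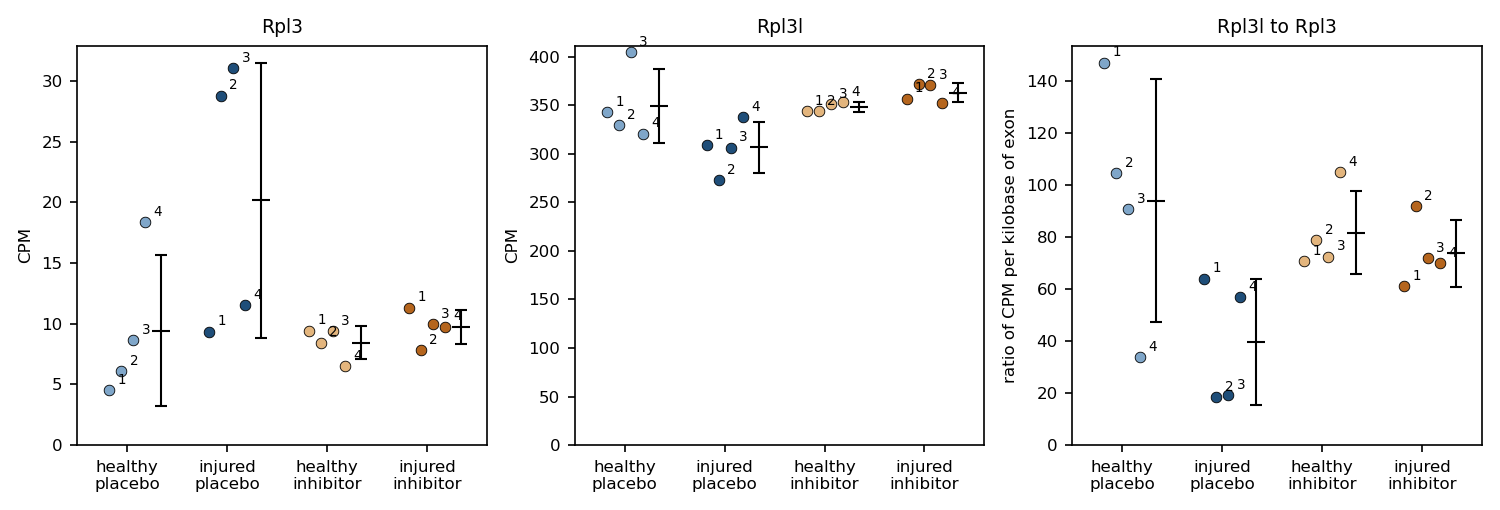
CPM of Rpl3 and of its muscle paralog Rpl3l, and their ratio per kilobase of exon, in each library (points, numbered by replicate) with the group mean and SD (bars). Injured placebo 2 and 3 hold the highest Rpl3 (28.8 and 31.1 CPM) and the lowest ratios (18.3 and 19.1).

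Other members showed smaller differences. Rpl17, a protein of the polypeptide exit tunnel, had a log2 difference of 0.56 ± 0.27 and Rpl23a, at the tunnel exit, one of 0.47 ± 0.37 (SE, edgeR adjusted p = 0.641 and 0.709); without the 4 libraries high in Prg4 they were -0.02 and -0.01. Rpl13a, known for a role in silencing inflammatory transcripts, was at 125, 128, 182 and 170.5 CPM in healthy placebo and at 121, 245, 233 and 129 CPM in injured placebo. Only injured placebo 2 and 3 exceeded the healthy range, and the log2 difference was 0.27 ± 0.20 (edgeR adjusted p = 0.692).

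Rplp0, a stalk protein, was at 458, 438, 528 and 474 CPM in healthy placebo and at 448, 569, 625 and 447 CPM in injured placebo, a log2 difference of 0.14 ± 0.11 (SE, edgeR adjusted p = 0.715). Rps14 and Rps4x, of the small subunit, had log2 differences of 0.28 ± 0.15 and 0.24 ± 0.12 (edgeR adjusted p = 0.641 for both). Rpl24 and Rpl7a, with log2 differences of -0.08 each, were 2 of the 5 members lower in injured quadriceps; with library totals as the scaling they were 0.10 and 0.07, while the median of all genes moved from 0.01 to 0.15. Rplp0, Rpl13a, Rps14 and Rps4x all turned negative without injured placebo 2 and 3, at -0.09, -0.27, -0.05 and -0.03.

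The inhibitor was then compared with placebo in injured quadriceps, to ask what CSF1-R inhibition did after injury. This comparison shares the injured placebo libraries with the one above, and so it takes the opposite sign where they alone are high. Of 81 members, 9 were higher with inhibitor and the median log2 difference was -0.19, against 46.9% higher and a median of -0.02 over all tested genes. EdgeR called no gene (0%), DESeq2 called 255 genes (1.63% of those with an adjusted p) and 0 members, and limma-voom with quality weights called 1229 genes (7.97%) and 8 members. At an unadjusted p under 0.05 in edgeR, 10 members were lower and 1 higher (background 9.03% and 5.82% of all genes).

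The direction again turned without injured placebo 2 and 3, and leaving out the libraries highest in score was bound to raise this median. Without injured placebo 2 and 3, 64 of 81 members were higher with inhibitor and the median was 0.15, and without the 4 libraries high in Prg4, 63 were higher and the median was 0.14. The 8 members called by limma-voom were Rpl3, Rpl12, Rpl14, Rpl18, Rps4x, Rps14 and Rps26, which were lower, and Rpl3l, which was higher. All 7 lower members also had an unadjusted p under 0.05 in edgeR, as did Rpl3l.

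Rpl3 was at 11.3, 7.83, 9.99 and 9.76 CPM in injured inhibitor, within the range of healthy placebo. The log2 difference to injured placebo was -1.05 ± 0.43 (SE, edgeR adjusted p = 0.280), and -0.10 without the 4 libraries high in Prg4. Rpl3l was at 357, 372, 371 and 352 CPM in injured inhibitor, and every one of these was above the highest injured placebo library (338). It was the only member whose groups did not overlap here (background 2.77% of all genes higher and 2.87% lower), with a log2 difference of 0.24 ± 0.09 (edgeR adjusted p = 0.244) that was 0.17 without the 4 libraries.

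Rpl14, a large subunit protein chosen for mention after its values were seen, was at 92.5, 72.2, 83.2 and 56.5 CPM in injured placebo and at 51.2, 58.7, 63.0 and 63.1 CPM in injured inhibitor. Injured placebo 1 was the highest of these, unlike for most members, and injured placebo 4 lay within the inhibitor range. Its log2 difference was -0.37 ± 0.13 (SE, edgeR adjusted p = 0.229), and -0.33 without the 4 libraries high in Prg4. Rps12 and Rpl12 were at -0.44 ± 0.30 and -0.51 ± 0.23 (edgeR adjusted p = 0.515 and 0.326), and Rps12 was 0.24 without the 4 libraries while Rpl12 was -0.02.

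Rps14, Rps4x and Rpl13a had log2 differences of -0.31 ± 0.15, -0.27 ± 0.12 and -0.30 ± 0.20 (SE), none called by edgeR (adjusted p = 0.331, 0.324 and 0.484). Rplp0 was at 499, 496, 503 and 456 CPM in injured inhibitor, between the injured placebo values, with a log2 difference of -0.10 ± 0.11 (edgeR adjusted p = 0.730). Rps29 and Rpl36a were the next highest members after Rpl3l among those whose mean log2 CPM reached 1, at 0.10 ± 0.37 and 0.10 ± 0.43 (edgeR adjusted p = 0.930 and 0.943); with library totals they were -0.05 and -0.07, and the median of all genes was -0.16.

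**Figure D4:**
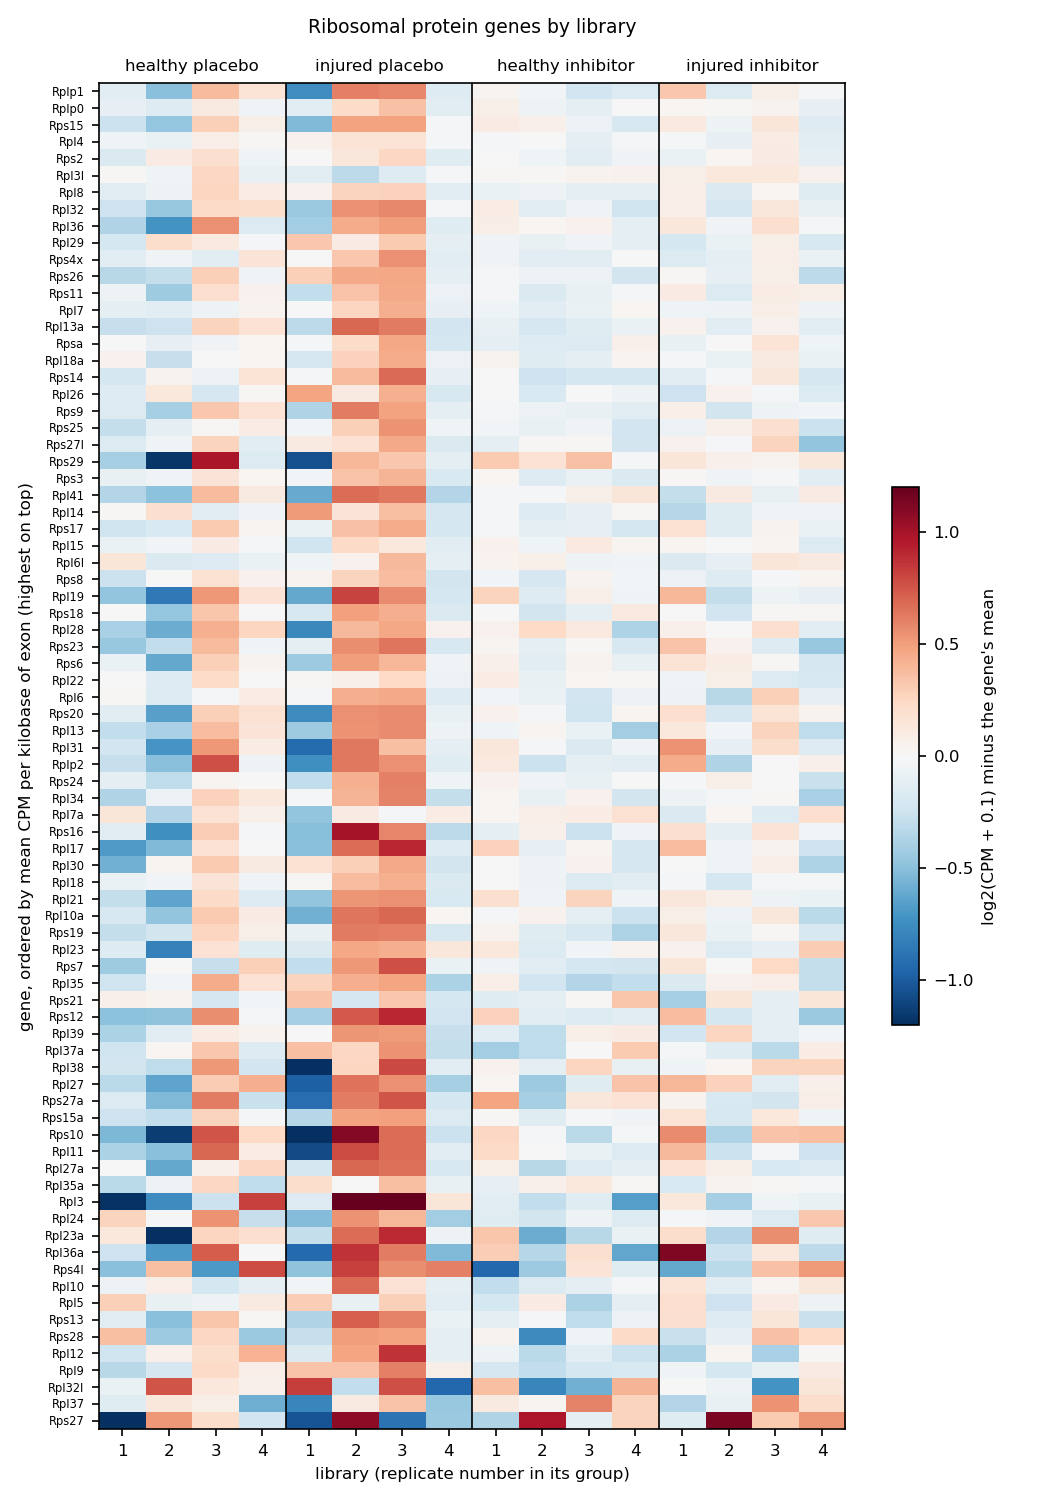
Of the 81 tested members, 80 (rows, ordered by CPM per kilobase) in each of the 16 libraries (columns, by group and replicate), as log2(CPM + 0.1) minus the gene's mean, with colours capped at the ends of the scale. Injured placebo 2 and 3 are red for most rows, Rpl3l is blue in both, and the inhibitor libraries are pale.

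With the inhibitor, injured and healthy quadriceps differed little. Of 81 members 60 were higher in injured quadriceps, with a median log2 difference of 0.04, against 51% and 0.00 over all genes. EdgeR called 0 genes (0%), limma-voom 0 and DESeq2 1 gene and 0 members, and no member had an unadjusted p under 0.05 (background 0.766% higher and 0.545% lower). Within inhibitor animals 1 to 4 the scores differed by 0.04, 0.05, 0.12 and 0.01, and 44, 47, 57 and 35 of 81 members were higher in the injured limb. Rpl3 had a log2 difference of 0.20 ± 0.43, Rpl3l 0.06 ± 0.09, Rps10 0.29 ± 0.48 and Rps27a, which is made fused to ubiquitin, -0.19 ± 0.32 (SE, edgeR adjusted p = 1.00 for each).

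In healthy quadriceps, the inhibitor was compared with placebo to ask what it did without injury to that limb. Of 81 members 27 were higher with inhibitor, with a median log2 difference of -0.04, against 46% and -0.02 over all genes. EdgeR called 0 genes (0%), limma-voom 0 and DESeq2 12 genes and 0 members, and no member had an unadjusted p under 0.05 (background 1.3% higher and 2.03% lower). Rpl3 and Rpl3l had log2 differences of -0.15 ± 0.43 and -0.01 ± 0.09 (edgeR adjusted p = 1.00 for both), and Rpl3 was 0.34 without the 4 libraries high in Prg4.

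The members at the ends of this comparison were Rps29 and Rps4l. Rps29, a small zinc-binding protein, was at 20.7, 12.2, 54.0 and 24.4 CPM in healthy placebo and at 34.2, 30.9, 35.0 and 26.9 CPM in healthy inhibitor. Healthy placebo 3 was the highest of all 16 libraries and healthy placebo 2 the lowest, and the log2 difference of 0.19 ± 0.37 (SE, edgeR adjusted p = 1.00) was smaller than its error. The pseudogene Rps4l was at -0.42 ± 0.39 (edgeR adjusted p = 1.00), and at 0.08 without the 4 libraries.

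The injury effect with inhibitor minus that with placebo was tested as an interaction. Its median over the members was -0.16, with 10 of 81 positive, against 49.5% positive and a median of 0.00 over all genes. No gene was called by edgeR (0%), DESeq2 or limma-voom, and no member had an unadjusted p under 0.05 (background 1.36% higher and 1.38% lower). The interaction was -0.90 ± 0.60 for Rpl3, 0.25 ± 0.13 for Rpl3l, -0.53 ± 0.39 for Rpl17 and -0.46 ± 0.43 for Rps12 (SE, edgeR adjusted p = 0.998 for each). Without injured placebo 2 and 3 the median was 0.18 with 69 of 81 positive, and without the 4 libraries high in Prg4 it was 0.20 with 65 positive.

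**Figure D5:**
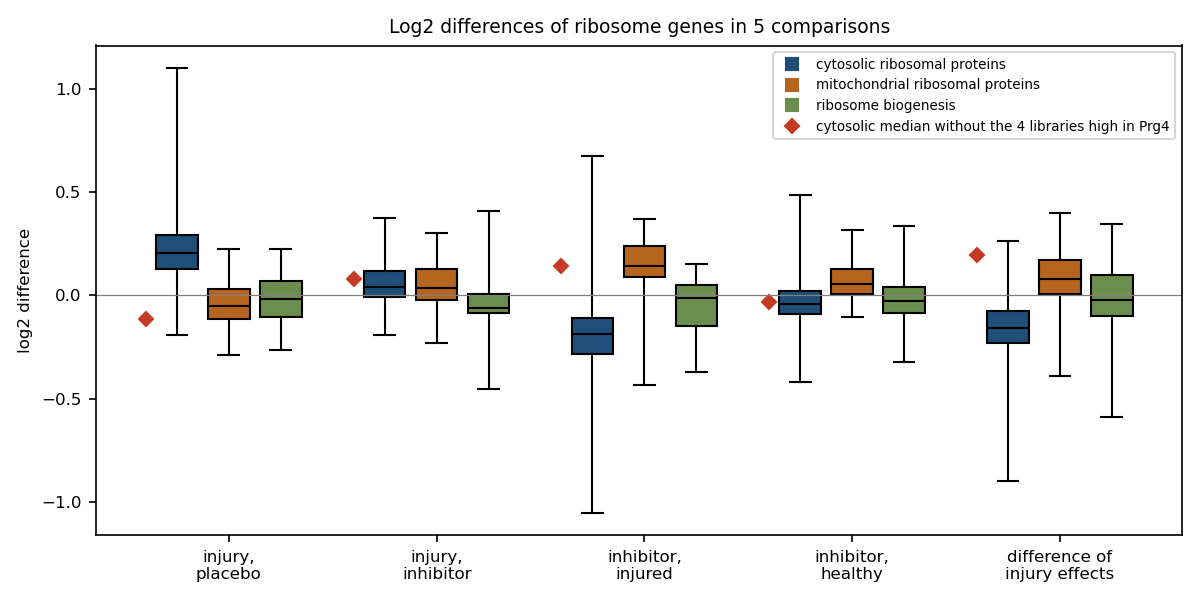
Log2 differences in the 5 comparisons for the 81 cytosolic ribosomal protein genes, the 78 mitochondrial ones and 40 ribosome biogenesis genes (boxes, quartiles with median; whiskers, lowest and highest gene), with the cytosolic median without the 4 libraries high in Prg4 as a diamond. The cytosolic median is 0.21 for injury with placebo and -0.19 for the inhibitor in injured quadriceps, and the diamonds lie at -0.11 and 0.14.

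Other genes of the translation machinery were set beside the members, with no test between lists. Among 40 ribosome biogenesis and RNA polymerase I genes, 19 were higher after injury with placebo (median log2 difference -0.02) and 16 were higher with inhibitor in injured quadriceps (median -0.01). EdgeR, DESeq2 and limma-voom called none of them. At an unadjusted p under 0.05, 0 were higher and 1 lower after injury with placebo (background 4.61% and 2.63% of all genes), and 0 higher and 2 lower with inhibitor (background 5.82% and 9.03%). With library totals as the scaling, 31 of the 40 were higher after injury (median 0.14) and 1 with inhibitor (median -0.14), close to the medians of all genes of 0.15 and -0.16 under that scaling.

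Among 27 translation factors and related mRNAs, 13 were higher after injury with placebo (median 0.00) and 12 with inhibitor in injured quadriceps (median -0.07). EdgeR and DESeq2 called none, and limma-voom called 3 in the second comparison (background 7.97% of all genes). At an unadjusted p under 0.05 in edgeR, 1 was higher and 0 lower after injury (background 4.61% and 2.63%). With inhibitor 1 was higher and 4 lower (background 5.82% and 9.03%). The second median turned to 0.03 without injured placebo 2 and 3 and to 0.02 without the 4 libraries high in Prg4, each with 15 of 27 higher. With library totals 22 were higher after injury and 5 with inhibitor. Within that list the general factor Eef1a1 was at 300.4, 917, 1035 and 318 CPM in injured placebo and at 309, 226, 311 and 349 CPM in injured inhibitor, while healthy placebo 4 held 638 CPM and the other healthy placebo libraries 224 to 266.

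Eef1a1 had a log2 difference of 0.92 ± 0.43 for injury with placebo and of -1.10 ± 0.43 for the inhibitor in injured quadriceps (SE, edgeR adjusted p = 0.641 and 0.268). Its muscle paralog Eef1a2 had differences of -0.26 ± 0.13 and 0.24 ± 0.13 (edgeR adjusted p = 0.641 and 0.402). Without the 4 libraries high in Prg4, Eef1a1 was 0.36 and -0.05 and Eef1a2 was -0.30 and 0.25. As with Rpl3 and Rpl3l, the general form was highest in injured placebo 2 and 3.

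The 78 mitochondrial ribosomal protein genes, which build the separate ribosome of the organelle, had the sign opposite to the cytosolic ones with inhibitor in injured quadriceps. Of these, 70 were higher, with a median log2 difference of 0.14; 16 had an unadjusted p under 0.05, all higher (background 5.82% of all genes higher), and 12 had groups that did not overlap, also all higher (background 2.77%). EdgeR called none, DESeq2 1 (background 1.63%) and limma-voom 4 (background 7.97%). Unlike the cytosolic median, this one kept its sign without the 4 libraries high in Prg4 (0.17, with 70 of 78 higher). With library totals as the scaling it was 0.00 with 42 higher, and the median of all genes was -0.16. In healthy quadriceps 62 of the 78 were also higher with inhibitor (median 0.06, against 46% and -0.02 over all genes). Without the 4 libraries high in Prg4, 38 were higher there (median -0.01). After injury with placebo 26 of the 78 were higher (median -0.05). With library totals 69 were higher after that injury (median 0.10, all genes 0.15). Mrpl4 was at 31.7, 27.1, 31.0 and 32.4 CPM in injured placebo and at 35.6, 38.7, 41.0 and 37.9 CPM in injured inhibitor, a log2 difference of 0.33 ± 0.08 (SE, edgeR adjusted p = 0.174, DESeq2 adjusted p = 0.0288).

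Mrpl12, which also binds the mitochondrial RNA polymerase, and Mrpl34 had log2 differences of 0.35 ± 0.10 and 0.27 ± 0.08 (SE, edgeR adjusted p = 0.216 and 0.221). Of 16 regulators of ribosome production, 12 were higher with inhibitor in injured quadriceps (median 0.08). EdgeR called none of the 16, DESeq2 1 (background 1.63%) and limma-voom 2 (background 7.97%). At an unadjusted p under 0.05 in edgeR, 2 were higher and 2 lower (background 5.82% and 9.03%). The sign of their median turned without injured placebo 2 and 3 (6 of 16 higher, median -0.09) and without the 4 libraries high in Prg4 (6 higher, median -0.10). It also turned with library totals (4 higher, median -0.05, all genes -0.16). Mlst8 and Rptor, subunits of mTORC1, had groups that did not overlap (background 2.77% of all genes higher), at 0.47 ± 0.10 and 0.24 ± 0.08 (edgeR adjusted p = 0.148 and 0.229; DESeq2 adjusted p = 0.00905 for Mlst8). Myc was at 3.93, 6.47, 6.30 and 4.45 CPM in injured placebo and at 1.62, 3.33, 2.97 and 4.03 CPM in injured inhibitor, with injured placebo 1 below injured inhibitor 4. Its log2 difference was -0.82 ± 0.31 there and 0.57 ± 0.31 for injury with placebo (edgeR adjusted p = 0.249 and 0.641).

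Members differed in how steady they were within groups, and the relation of this to their level was not tested. The SD of log2 CPM within groups had a median of 0.28 over the members, as over all tested genes. It was smallest for Rpl4 (0.08), Rpl3l (0.10) and Rpl22 (0.12) and largest for Rps27 (0.84), Rps10 (0.77) and Rpl36a (0.66). Rps10 was at 7.08, 4.65, 17.6 and 12.3 CPM in healthy placebo and at 3.31, 22.4, 16.6 and 8.65 CPM in injured placebo, so that its highest and lowest libraries belonged to 1 group. Split at a coding length of 468 bases, the 40 shorter members had scores of 0.29 in healthy placebo 3 and -0.30 in injured placebo 1. The 41 others had 0.15 and -0.22, and healthy placebo 3 showed the widest gap of any library. In injured placebo 2 and 3 the scores were alike, at 0.44 and 0.49 for the shorter members and 0.43 and 0.49 for the others.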

How the data were processed

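Total RNA of 16 quadriceps libraries was sequenced, with RNA isolated by TRIzol and a column kit per the labels' protocols. The authors deposited unnormalized expected counts by Ensembl gene ID. The submitters' processing notes name STAR, Partek, DESeq2 and GRCm38/mm10 without saying what each did, and the strand setting is not given in the sources used here. Symbols came from GENCODE M21. The expected counts were rounded, genes with low counts removed by filterByExpr (minimum count 10; 1959 removed), and libraries scaled by TMM. EdgeR 4.0.16 (R 4.3.3) fitted 4 group means to all libraries with robust quasi-likelihood, with two-sided p-values adjusted by Benjamini-Hochberg over all 15411 genes (threshold 0.05); it was tested on simulated data. Log2 CPM used a prior count of 2. The labels call each sample a biological replicate, and p-values cover the spread between samples alone. Limbs were not paired in the fit of 4 group means. Copies were found with BLAST 2.17.0+ among GENCODE M21 transcripts.

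Members and lists were chosen with earlier results of these data known. Genes named were fixed members (stalk genes, paralog pairs and others) and the highest and lowest of each comparison whose mean log2 CPM reached 1, the 5 highest and lowest by level, the 3 steadiest and least steady, and up to 3 genes of smallest p of each companion list; a subset is printed, and Rpl14, Prg4, Eef1a1, Eef1a2 and the members listed by p were added after their values were seen. Alternatives were DESeq2 1.42.0 and its size factors, library totals, TMM without members and mitochondrial genes, no filter, limma-voom (limma 3.58.1) with quality weights, only the libraries compared, a wider member list, replicate blocks and each library left out; added after seeing the data were fits without the 4 libraries above 100 CPM of Prg4, without injured placebo 2 and 3, and with coding members or members without copies only. Limbs of 1 animal were paired by the library names; their deviations from group means correlated at 0.23, -0.04, -0.01 and -0.10 (inhibitor animals 1 to 4) and at 0.47, -0.18, -0.11 and -0.53 (placebo animals 1 to 4), and the animal was the block for injury effects. For the inhibitor against placebo the block was the replicate number, which joins different animals and so is not a pairing. Figures used matplotlib 3.10.9 in Python 3.11.15. Some items are not reported here.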

Additional observations from a re-analysis of the deposited data

Results flagged for a closer look

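The 112 groups of 4 libraries searched were those of the genes named with values, of the ribosomal protein score and of the share of counts. Of these, 8 held a library that stood far from the other 3. Chance gives about 1 in 20, which is not far from this share, so a flag alone is no finding. Eef1a1 was at 638 CPM in healthy placebo 4, against 224 to 266 in the other 3 libraries; that library is also high in Prg4, macrophage and matrix markers. Others stood apart on the low side: Rpl23a was at 0.904 CPM in healthy placebo 2 (others 2.84 to 3.12), Rplp0 at 456 CPM in injured inhibitor 4 (others 496 to 503) and Mrpl12 at 78.3 CPM in injured inhibitor 4 (others 82.1 to 82.8). Healthy inhibitor 1, high in Prg4, was above its group for Rps12, at 16.2 CPM (others 11.9 to 12.2), and for Rps14, at 146 CPM (others 123 to 127). Healthy placebo 2 was above its group for Rptor, at 57.5 CPM (others 47.1 to 47.6), and for Mrpl4, at 38.1 CPM (others 31.6 to 32.7).

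Mrpl34 was lower in the injured limb of all 4 placebo animals and higher in the injured limb of all 4 inhibitor animals, with a mean log2 difference that was -0.25 when the inhibitor animals were subtracted from the placebo animals. The interaction in edgeR had an unadjusted p of 0.0360 and an adjusted p of 0.998, so it was not called.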

How the results depend on the processing

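Of the 436 alternatives to the log2 differences of named genes, leave-one-out fits aside, 398 kept the sign, 38 turned it and 12 were called. Both alternatives that follow leave out the 2 libraries highest in score, which was bound to move the member medians. Without injured placebo 2 and 3, and without the 4 libraries high in Prg4, these medians were -0.12 and -0.11 for injury with placebo. They were 0.15 and 0.14 for the inhibitor in injured quadriceps and 0.18 and 0.20 for the difference of the injury effects. In the same order, the signs that turned were, for injury with placebo, Rpl17 -0.096 and -0.023, Rpl23a -0.11 and -0.0084, Rplp0 -0.087 and -0.091 and Rpl13a -0.27 and -0.22, with Rps4x -0.034, Rps14 -0.049 and Eef1a1 -0.13 in the first alone. For the inhibitor in injured quadriceps they were Rps12 0.25 and 0.24, Rplp0 0.14 and 0.13, Rps4x 0.011 and 0.0048, Rpl13a 0.24 and 0.24 and Rps14 0.028 and 0.021. For the difference they were Rpl17 0.12 and 0.15 and Rps12 0.22 and 0.34, with Rpl3 0.050 in the first alone. For the inhibitor in healthy quadriceps Rpl3l was 0.0029 without injured placebo 2 and 3, and Rpl3 0.34 and Rps4l 0.081 without the 4 libraries.

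Library totals as the scaling moved the median of all genes to 0.15, 0.02, -0.16, -0.03 and -0.13 (injury under placebo and under inhibitor, the inhibitor in the injured limb and in the healthy limb, and the interaction) and, in that order, the median of the members to 0.37, 0.06, -0.34, -0.05 and -0.30, turned Rpl24 (0.10) and Rpl7a (0.070) for injury with placebo and Rps29 (-0.052) and Rpl36a (-0.072) for the inhibitor in injured quadriceps, and widened the gap in score between the lower of injured placebo 2 and 3 and the next library from 0.22 to 0.53. With limma-voom the member medians in that order were 0.37, 0.05, -0.31, -0.01 and -0.32, with all genes between -0.01 and 0.01, and it turned Rpl24 (0.093), Rps29 (-0.053), Rpl36a (-0.16) and, in healthy quadriceps, Rpl3 (0.15); without the low-count filter Rpl3l was 0.00092 there. The 5 tested members without a near-identical copy had a median of -0.03 for the difference of the injury effects, against -0.16 for all members. The cause of these was not tested. Genes called for the inhibitor in injured quadriceps numbered 255 with DESeq2, 1229 with limma-voom (8 of them members) and 1 with the replicate block; DESeq2 called 1 gene for injury with inhibitor and 12 for the inhibitor in healthy quadriceps. The replicate block, which for the inhibitor against placebo joins different animals by number, changed no call of a member.

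Leaving out 1 library gave 0 to 3 called genes for injury with placebo, 0 to 38 for the inhibitor in injured quadriceps and 0 to 1 in healthy quadriceps, and no called member. The member medians were 0.09 to 0.33 for injury with placebo, 0.03 to 0.08 for injury with inhibitor, -0.27 to -0.07 and -0.09 to 0.06 for the inhibitor in injured and healthy quadriceps, and -0.25 to -0.05 for the difference. Signs turned for Rpl24 (-0.29 to 0.074) and Rpl7a (-0.18 to 0.031) with placebo, for Rps29 (-0.11 to 0.28), Rpl36a (-0.34 to 0.44) and Rplp0 (-0.16 to 0.011) with inhibitor in injured quadriceps, and for Rpl3 (-0.39 to 0.40), Rpl3l (-0.046 to 0.072) and Rps29 (-0.056 to 0.74) in healthy quadriceps. Low counts limit Rps27, Rpl37 and Rpl32l, and near-identical copies limit the level of 76 of the 82 genes.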

Other observations

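The 93 genes of the table whose symbol ends in -ps, pseudogenes of ribosomal proteins by name, held 0.198 to 0.344% of counts per library. Of 74 tested, 60 were higher after injury with placebo (median log2 difference 0.20) and 10 were higher with inhibitor in injured quadriceps (median -0.24), against 76 and 9 of the 81 ribosomal protein genes with medians of 0.21 and -0.19. EdgeR called none of them. At an unadjusted p under 0.05 in edgeR, 4 were higher and 0 lower after injury (background 4.61% and 2.63% of all genes). With inhibitor 0 were higher and 8 of the 74 lower (background 5.82% and 9.03%). Which gene a shared read belonged to cannot be told from the deposited table.

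Slow fibre markers spanned a wide range within every group. The 5 genes summed to 58.0 to 1038 CPM in healthy placebo, 42.7 to 2219 in injured placebo, 32.3 to 1828 in healthy inhibitor and 104 to 2204 in injured inhibitor. Injured placebo 3, the library with the highest ribosomal protein score, held 2219 CPM, and injured placebo 2, with the next highest, 703 CPM.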
